A study of Homo sapiens with 12 samples.

Results

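The 10 genes described here code for receptor chains with which blood cells sense cytokines, the secreted proteins that steer their growth and maturation: EPOR, CSF3R, CSF2RB, IL6ST, IL2RG, IL6R, OSMR, IL4R, IFNGR1 and CSF1R. They were chosen as a list by name, with earlier results of these data known. A comparison of the list with all genes is therefore a description. Each gene had 1 row on the array that carried its symbol alone, so that all 10 were measured among 18417 genes with such a row. Expression was compared in 4 groups of 3 Affymetrix Gene ST arrays: UKE1 cells cultured for 6 h with 250 nM ITF2357, UKE1 cells cultured for 6 h without it, HEL cells cultured for 6 h with 250 nM ITF2357, and HEL cells cultured for 6 h without it. ITF2357 (givinostat) inhibits histone deacetylases, enzymes that take acetyl groups off histones. UKE1 and HEL are established human cell lines labelled as erythroleukemia cells, and the treated and untreated cells of both carry the JAK2V617F mutation. Each line is a single model, so a difference between the groups of UKE1 and HEL is one between these lines and their media. The medium of UKE1 held 10% horse serum and 10 µM hydrocortisone beside the 10% FCS that both lines received, and line and medium cannot be told apart. The series calls the triplicates independent and gives no more on how cultures were kept apart, so a p-value here reflects the variation among these arrays, part of which may be technical.

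All levels below are log2 values as the authors deposited them, on which a difference of 1 is a doubling. Changes and folds are taken between groups within a gene only. Rows of other tissues' genes, given below, are a rough mark of low levels, as levels of different rows are not strictly comparable. Across rows, Pearson's r was 0.994 to 0.996 within a group and 0.928 to 0.943 between UKE1 and HEL arrays. The label of erythroleukemia was checked on 6 erythroid markers. ALAS2, the first enzyme of erythroid heme synthesis, averaged 5.96 in untreated UKE1 cells and 9.48 in untreated HEL cells, and the red cell membrane gene EPB42 averaged 5.52 in untreated UKE1 cells and 9.81 in untreated HEL cells. KLF1 averaged 6.84 in untreated UKE1 cells and 8.66 in untreated HEL cells. Among 5 lymphoid markers, CD3D, a chain of the T-cell receptor complex, averaged 9.15 in untreated UKE1 cells and 4.30 in untreated HEL cells. CD8A and MS4A1 averaged 6.24 and 4.08 in untreated UKE1 and 5.58 and 3.93 in untreated HEL cells. The median over markers, in untreated UKE1 and HEL cells, was 7.39 and 4.96 for lymphoid and 5.74 and 7.82 for erythroid ones. It was 8.35 and 9.82 over 6 megakaryocyte markers and 7.05 and 5.81 over 5 myeloid markers. Rows of 8 genes of other tissues, such as ALB and COL1A1, averaged between 3.32 and 7.30 in the 4 groups. The 7.30 was that of COL1A1 in treated UKE1 cells. COL1A1, the highest of these rows in each group, averaged 6.89 in untreated UKE1, 6.98 in treated HEL and 6.84 in untreated HEL cells. All 6 erythroid markers lay within the range of 3.32 to 7.30 in UKE1 cells, as did HBD, SLC4A1 and AHSP in untreated HEL cells. HBD, at 6.99, was above COL1A1 in untreated HEL cells. AHSP averaged 3.97 in untreated UKE1 cells and 3.74 in untreated HEL cells. The table has no detection flag, so whether a receptor RNA at such a level was present was not determined.

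Most of these receptors have no enzyme of their own. A cytokine brings receptor chains together, the JAK kinases bound to the chains then phosphorylate each other and the receptor, and STAT factors that dock there move to the nucleus. Mutant JAK2 is known to need a receptor to dock on, in particular the receptors that pair with a copy of themselves, such as EPOR and CSF3R. CSF1R differs from the others in being a tyrosine kinase itself.

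With ITF2357, 8 of the 10 receptor genes changed in UKE1 cells and 3 of 10 in HEL cells. In UKE1 cells CSF1R, IL6R, CSF3R, IL2RG and CSF2RB fell and IFNGR1, IL6ST and IL4R rose. In HEL cells IFNGR1 and IL6ST rose and IL4R fell. IFNGR1 and IL6ST thus rose in both lines, and IL4R moved in opposite directions. A gene is said to have risen, fallen or changed where limma's adjusted p (Benjamini-Hochberg over the 18417 genes) was under 0.05. By that rule 44.3% of all genes were called in UKE1 and 42.4% in HEL, so the 3 of 10 in HEL lie near the share over all genes and are no result about the receptor genes as a list. The share depends on low rows: after a filter on low values 8 of 9 receptor genes were called in UKE1, against 68.3% of the genes tested. Over all genes 22.0% rose and 22.3% fell in UKE1, and 22.6% rose and 19.9% fell in HEL. The median size of the log2 change was 0.52 over the 10 receptor genes and 0.18 over all genes in UKE1, and 0.17 over both in HEL. The 3 treated arrays lay beyond the 3 untreated ones for 8 of 10 receptor genes in UKE1 and 5 of 10 in HEL, against 53.9% and 49.0% of all genes. In RNA from whole cultures, fewer cells with a transcript and less of it per cell cannot be told apart.

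**Figure D1:**
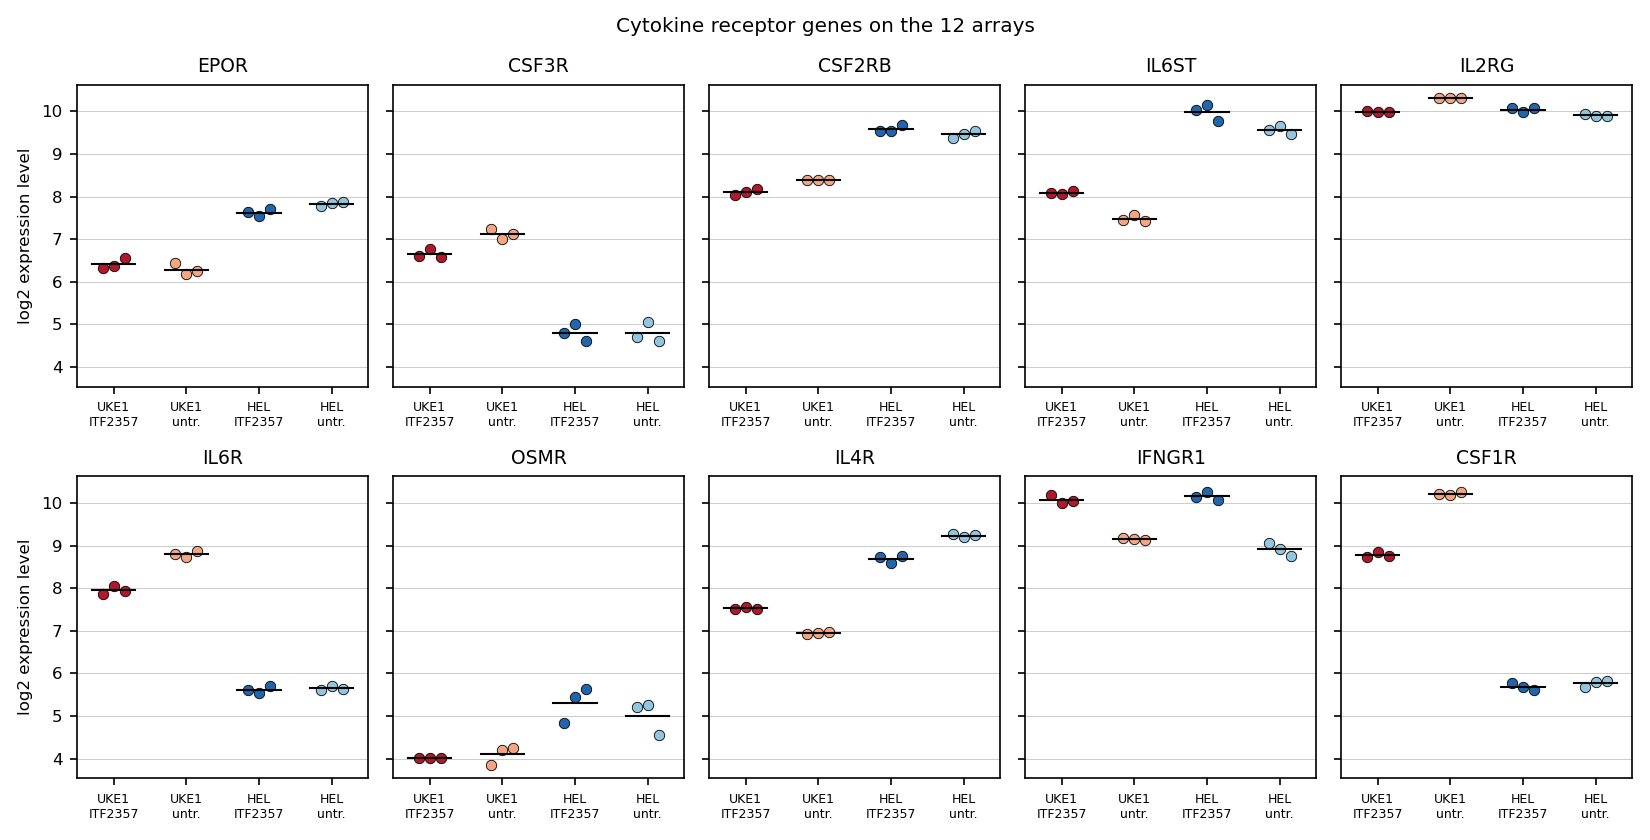
Log2 expression level (vertical axis) of the 10 receptor genes on every array, by group (horizontal axis; untr., untreated), with points for the 3 arrays of a group and a line at their mean. CSF1R and IL6R sit highest in untreated UKE1 cells, lower in treated UKE1 cells and lowest in HEL cells, whereas IFNGR1 is higher in the treated groups of both lines.

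CSF1R, the receptor for macrophage colony-stimulating factor and IL-34 on monocytes and macrophages, had the largest drug change of the 10 genes. It read 8.74, 8.84 and 8.75 in treated UKE1 cells, against 10.22, 10.18 and 10.25 in untreated UKE1 cells. In treated HEL cells it read 5.78, 5.67 and 5.61, and in untreated HEL cells 5.67, 5.80 and 5.82. The UKE1 groups did not overlap, and the HEL groups did. CSF1R fell 2.71-fold in UKE1 (log2 change -1.44 ± 0.0657, SE; limma adjusted p = 1.77e-09). In HEL its log2 change was -0.08 (95% interval -0.22 to 0.07; limma adjusted p = 0.401), at a level that rows of other tissues' genes also reached. The responses differed by -1.36 between UKE1 and HEL (limma adjusted p = 4.78e-07).

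IL6R, the chain that binds interleukin-6, gave the same order of groups. It read 7.86, 8.04 and 7.94 in treated UKE1 cells, against 8.80, 8.72 and 8.87 in untreated UKE1 cells. HEL arrays lay far lower, at 5.61, 5.54 and 5.71 with drug and 5.62, 5.71 and 5.64 without, and these 2 groups overlapped. IL6R fell 1.81-fold in UKE1 (log2 change -0.85 ± 0.0690, SE; limma adjusted p = 2.42e-07), and its log2 change in HEL was -0.04 (95% interval -0.19 to 0.11). The difference between the responses was -0.82 (limma adjusted p = 5.14e-05).

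CSF3R, the receptor for the neutrophil growth factor G-CSF, which signals as a pair of identical chains, fell in UKE1 cells as well. Its levels were 6.61, 6.78 and 6.58 in treated and 7.23, 7.00 and 7.12 in untreated UKE1 cells, which did not overlap. In HEL they were 4.79, 5.02 and 4.62 with drug and 4.70, 5.07 and 4.61 without, which overlapped. The fall in UKE1 was 1.37-fold (log2 change -0.46 ± 0.123, SE; limma adjusted p = 0.00728), and the HEL change was 0.02 (95% interval -0.25 to 0.28). The difference between the responses, -0.48, was not called (limma adjusted p = 0.0641), but it was called without untreated HEL replicate 2 (-0.61, adjusted p = 0.0113) and without treated HEL replicate 3 (-0.57, adjusted p = 0.0351). After quantile normalization and after median centring it was -0.53 and called (limma adjusted p = 0.0322 and 0.0325).

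SPI1 (PU.1), a transcription factor of myeloid cells known to bind sites with the core GAGGAA in promoters of myeloid receptors, fell in both lines. SPI1 averaged 8.06 in treated and 9.02 in untreated UKE1 cells, and 7.90 in treated and 8.62 in untreated HEL cells. The promoters of the 3 receptor genes that fell most in UKE1 are shown for that core, as RefSeq gives them on GRCh38.p14, from 250 bases before to 50 after a start and in the direction of the gene. Capitals mark matches to 3 motifs searched on both strands, namely GAGGAA, the GATA-factor core GATAA, and a STAT-type motif of TTCC and GAA with any 3 bases between them. Of 35116 RefSeq promoters of this length, 27.9% held GAGGAA, 22.7% GATAA and 3.64% the STAT-type motif, so a match is a description and not a site. Of the 12 promoters found for 9 receptor genes, 6 held GAGGAA, and these were of CSF1R, CSF3R, IL6R, IFNGR1, IL2RG and OSMR, genes that fell, rose or were not called in UKE1. CSF1R has 2 starts in the table, and the one shown, chr5:150086505-150086804 on the minus strand, held GAGGAA 3 times, the first and second match side by side, while the other start had no match. For CSF3R, with 2 starts as well, chr1:36482864-36483163 held 1 GAGGAA and chr1:36483265-36483564 held 10 bases that fit the STAT-type motif on either strand, both on the minus strand. For IL6R, chr1:154405093-154405392 on the plus strand held GAGGAA once on each strand.
CSF1R: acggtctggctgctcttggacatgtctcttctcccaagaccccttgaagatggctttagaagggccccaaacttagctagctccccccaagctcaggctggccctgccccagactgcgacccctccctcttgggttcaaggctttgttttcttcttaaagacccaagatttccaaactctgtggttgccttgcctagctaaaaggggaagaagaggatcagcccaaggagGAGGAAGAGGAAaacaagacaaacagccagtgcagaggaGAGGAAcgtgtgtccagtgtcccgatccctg
CSF3R, chr1:36482864-36483163: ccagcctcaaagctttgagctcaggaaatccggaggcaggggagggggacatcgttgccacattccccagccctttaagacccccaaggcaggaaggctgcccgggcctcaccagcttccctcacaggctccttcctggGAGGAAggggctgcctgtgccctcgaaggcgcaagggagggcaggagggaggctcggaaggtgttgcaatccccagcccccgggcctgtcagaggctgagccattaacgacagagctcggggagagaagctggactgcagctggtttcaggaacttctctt
CSF3R, chr1:36483265-36483564: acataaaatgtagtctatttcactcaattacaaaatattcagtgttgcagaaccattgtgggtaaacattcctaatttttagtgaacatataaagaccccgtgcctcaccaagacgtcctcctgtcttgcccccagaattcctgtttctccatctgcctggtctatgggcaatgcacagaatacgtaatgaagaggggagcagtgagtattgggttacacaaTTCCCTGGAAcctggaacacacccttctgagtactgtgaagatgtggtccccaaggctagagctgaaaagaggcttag
IL6R: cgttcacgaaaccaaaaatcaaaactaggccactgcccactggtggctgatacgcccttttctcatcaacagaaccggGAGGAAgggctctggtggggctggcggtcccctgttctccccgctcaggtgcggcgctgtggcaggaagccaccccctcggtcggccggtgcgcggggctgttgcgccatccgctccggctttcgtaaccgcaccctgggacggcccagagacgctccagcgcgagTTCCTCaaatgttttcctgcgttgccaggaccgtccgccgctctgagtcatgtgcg

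EPOR, the receptor for erythropoietin, which like CSF3R signals as a pair of identical chains, did not pass the test in either line. EPOR read 6.32, 6.37 and 6.56 in treated UKE1 cells and 6.44, 6.18 and 6.25 in untreated UKE1 cells, which overlapped. In HEL it read 7.63, 7.54 and 7.71 with drug and 7.77, 7.84 and 7.88 without, which did not overlap. Its log2 change was 0.13 (95% interval -0.05 to 0.31) in UKE1 and -0.21 (95% interval -0.38 to -0.03, before adjustment) in HEL, where limma's adjusted p was 0.0599. The HEL change was close to the threshold and crossed it without treated HEL replicate 3 (-0.25, adjusted p = 0.0493), without untreated UKE1 replicate 1 (-0.21, adjusted p = 0.0417) or without treated UKE1 replicate 3 (-0.21, adjusted p = 0.0455). The responses differed by 0.34, which was not called (limma adjusted p = 0.0517). That difference was called without treated HEL replicate 3 (0.38, adjusted p = 0.0467), untreated UKE1 replicate 1 (0.41, adjusted p = 0.0209) or treated UKE1 replicate 1 (0.38, adjusted p = 0.0447). The erythroid factor GATA1 fell in both lines (-0.60 in UKE1 and -0.49 in HEL). KLF1, also an erythroid factor, fell in HEL (-0.47) while its UKE1 change was -0.03 (limma adjusted p = 0.817). The EPOR promoter is shown because it held 1 match to the GATA core, on the strand opposite to the gene at positions -78 to -74, where 0 is the first base of the transcript (chr19:11384265-11384564, minus strand).
EPOR: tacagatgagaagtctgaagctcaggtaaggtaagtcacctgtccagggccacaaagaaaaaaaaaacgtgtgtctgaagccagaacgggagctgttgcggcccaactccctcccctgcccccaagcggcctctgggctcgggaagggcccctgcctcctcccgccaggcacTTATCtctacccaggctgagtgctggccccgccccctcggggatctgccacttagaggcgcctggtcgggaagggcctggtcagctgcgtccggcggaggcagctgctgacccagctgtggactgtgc

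The 3 shared chains, each of which serves several cytokines, moved in different ways. IL6ST (gp130), the signalling chain of the IL-6 family, rose in both lines. It read 8.09, 8.06 and 8.13 in treated and 7.45, 7.57 and 7.44 in untreated UKE1 cells, and 10.03, 10.14 and 9.78 in treated and 9.56, 9.66 and 9.47 in untreated HEL cells. The groups overlapped in neither line. The rise was 1.52-fold in UKE1 (log2 change 0.61 ± 0.0858, SE; limma adjusted p = 4.43e-05) and 1.34-fold in HEL (0.42 ± 0.0858; adjusted p = 0.001075), and the responses differed by 0.19 (95% interval -0.07 to 0.45; adjusted p = 0.306). In UKE1 cells the 2 chains of the IL-6 receptor thus went opposite ways, IL6R down and IL6ST up.

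CSF2RB, the beta chain shared by the receptors for GM-CSF, IL-3 and IL-5, fell slightly in UKE1 cells. CSF2RB read 8.03, 8.11 and 8.17 in treated and 8.40, 8.38 and 8.39 in untreated UKE1 cells, which did not overlap. In HEL it read 9.55, 9.53 and 9.69 with drug and 9.38, 9.48 and 9.53 without, which overlapped. The UKE1 fall was 1.22-fold (log2 change -0.28 ± 0.0659, SE; limma adjusted p = 0.00275), the HEL change was 0.13 (95% interval -0.01 to 0.27; adjusted p = 0.143), and the difference of -0.41 was called (adjusted p = 0.00567). Its 3 partner chains did not pass the test in either line (limma adjusted p = 0.0605 to 0.981). CSF2RA changed by 0.21 in UKE1 and 0.15 in HEL, IL3RA by 0.05 and -0.01, and IL5RA by -0.00 and 0.10. CSF2RA averaged 5.24 with drug and 5.10 without in HEL, and IL3RA 4.16 and 4.17. IL5RA averaged between 3.63 and 4.18 in the 4 groups. Rows of other tissues' genes also reached these levels, so whether a change could be seen there was not determined.

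IL2RG, the common gamma chain of the receptors for IL-2, IL-4, IL-7, IL-9, IL-15 and IL-21, varied least, with group means that spanned 0.39. It read 10.00, 9.99 and 9.98 in treated and 10.31 on each untreated UKE1 array. In HEL it read 10.08, 9.98 and 10.07 with drug and 9.95, 9.90 and 9.90 without. The groups overlapped in neither line. IL2RG fell 1.25-fold in UKE1 (log2 change -0.32 ± 0.0536, SE, limma adjusted p = 0.000205). Its HEL change of 0.13 was not called (adjusted p = 0.0651), while the difference of -0.45 was (adjusted p = 0.000716). Without treated HEL replicate 2 the HEL change was 0.16 and called (adjusted p = 0.0415). It was also called after quantile normalization and median centring (0.14 and 0.15, limma adjusted p = 0.0494 and 0.0447). The same held after the filter on low values and with an intensity trend and robust moderation (0.13 in each, limma adjusted p = 0.0324 and 0.0283). CD3D and CD3E, which also mark T cells, averaged 8.75 and 8.35 in treated and 9.15 and 8.56 in untreated UKE1 cells. In the HEL groups they averaged between 4.24 and 4.96. CD8A, of the same marker list, averaged 6.35 in treated and 6.24 in untreated UKE1 cells. The part of these genes in the IL2RG values was not tested.

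IL4R, the chain that binds interleukin-4 and pairs with IL2RG or IL13RA1, moved in opposite directions. It read 7.52, 7.56 and 7.51 in treated UKE1 cells, against 6.93, 6.95 and 6.96 in untreated UKE1 cells. In HEL it read 8.72, 8.58 and 8.75 with drug, against 9.26, 9.20 and 9.24 without. The groups overlapped in neither line. IL4R rose 1.495-fold in UKE1 (log2 change 0.58 ± 0.0592, SE; limma adjusted p = 2.10e-06) and fell 1.46-fold in HEL (-0.55 ± 0.0592; adjusted p = 3.91e-06), a difference of 1.13 (adjusted p = 9.35e-07). Of all genes, 2.1% were called in both lines with opposite signs. The level of IL4R in untreated UKE1 cells lay within the range of other tissues' genes over the 4 groups. It was above 6.89, the highest of those rows in untreated UKE1 cells. STAT6, the factor that carries the IL-4 signal, was called the other way round, with -0.29 in UKE1 and 0.23 in HEL (adjusted p = 0.00749 and 0.0276). IL13RA1 rose in both lines, by 0.52 in UKE1 and 0.37 in HEL (adjusted p = 8.36e-05 and 0.00148). The IL4R promoter held none of the 3 motifs.

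IFNGR1, the ligand-binding chain of the interferon-gamma receptor, had the largest rise. It read 10.18, 9.99 and 10.04 in treated and 9.17, 9.16 and 9.14 in untreated UKE1 cells, and 10.13, 10.26 and 10.07 in treated and 9.06, 8.93 and 8.76 in untreated HEL cells. Treated arrays lay above untreated ones in both lines, while the treated groups of the lines overlapped each other. IFNGR1 rose 1.88-fold in UKE1 (log2 change 0.91 ± 0.0806, SE; limma adjusted p = 5.37e-07) and 2.36-fold in HEL (1.24 ± 0.0806; adjusted p = 4.24e-08). The difference of -0.32 was not called (adjusted p = 0.0556), but was without untreated HEL replicate 1 (-0.39, adjusted p = 0.0203) or treated UKE1 replicate 1 (-0.38, adjusted p = 0.0400). Of all genes, 14.0% rose in both lines. IFNGR2, the second chain of this receptor, did not pass the test, at -0.13 in UKE1 and 0.12 in HEL (adjusted p = 0.193 and 0.228).

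OSMR, which pairs with IL6ST to bind oncostatin M and is known mainly from cells outside the blood, was low and uneven. It read 4.02, 4.02 and 4.01 in treated and 3.86, 4.21 and 4.25 in untreated UKE1 cells, and 4.84, 5.45 and 5.64 in treated and 5.22, 5.26 and 4.55 in untreated HEL cells. The groups overlapped in both lines, and the SD of 0.416 in treated HEL cells was the largest of any group among the 10 receptor genes. Its log2 change was -0.09 (95% interval -0.52 to 0.34) in UKE1 and 0.30 (95% interval -0.13 to 0.73) in HEL (limma adjusted p = 0.773 and 0.263), and the HEL value was called without treated HEL replicate 1 (0.54, adjusted p = 0.0287).

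**Figure D2:**
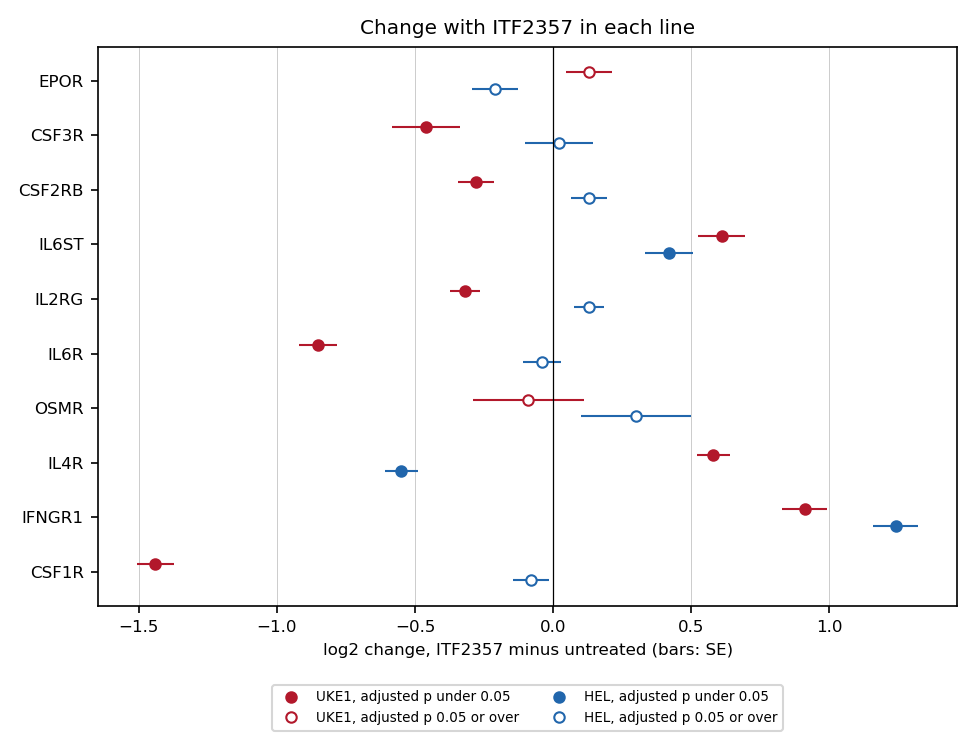
Log2 change with ITF2357 (treated minus untreated, horizontal axis; bars, SE of the fit) of the 10 receptor genes in UKE1 and HEL, with filled points where the adjusted p was under 0.05. CSF1R (-1.44) and IL6R (-0.85) lie far to the left in UKE1 and near 0 in HEL, IFNGR1 (0.91 and 1.24) to the right in both lines, and IL4R on opposite sides (0.58 and -0.55).

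The responses of UKE1 and HEL differed for 5 of the 10 receptor genes, against 23.9% of all genes (10.1% more positive and 13.8% more negative in UKE1). The change was more negative in UKE1 for CSF1R, IL6R, IL2RG and CSF2RB, and more positive for IL4R. The median difference of responses was -0.40 over the 10 genes and 0.01 over all genes. The count of 5 was sensitive to the treatment of the variance and of low genes, as 8 genes were called with an intensity trend and robust moderation and 8 of 9 after a filter on low values, against 26.8% and 41.0% of the genes tested under these settings. CSF3R, EPOR and IFNGR1 were the added ones. With quantile normalization 6 were called, CSF3R being added, and with median centring 7, CSF3R and IFNGR1 being added. Of all genes, 24.6% and 24.3% were called under these scalings.

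CSF1R, IL6R and CSF3R were higher in UKE1 than in HEL with and without drug, and EPOR, CSF2RB, IL6ST, OSMR and IL4R were lower. The median size of the difference between untreated lines was 1.81 over the 10 receptor genes and 0.35 over all genes. With ITF2357, UKE1 differed from HEL in 8 of 10 receptor genes (68.0% of all genes were called, 34.0% higher and 34.0% lower in UKE1), and untreated UKE1 differed from untreated HEL in all 10 (67.7% of all genes, 33.3% higher and 34.4% lower). The arrays of the lines did not overlap for 8 of 10 receptor genes with drug and for 10 of 10 without, against 72.3% and 69.4% of all genes. CSF1R was 8.51-fold higher in treated UKE1 than in treated HEL cells and 21.9-fold higher in untreated UKE1 than in untreated HEL cells. IL6R was 5.01-fold higher in UKE1 with drug and 8.82-fold without, and CSF3R 3.595-fold and 5.00-fold higher, with drug and without. The HEL levels of these 3 genes lay within the range of other tissues' genes, so the folds of CSF1R and IL6R may be no more than lower bounds. CSF3R lay within that range over the 4 groups in UKE1 too (6.66 with drug and 7.11 without). Its untreated level was above 6.89, the highest of those rows in untreated UKE1 cells. No bound was determined for CSF3R. Lower in UKE1 were IL4R (2.23-fold with drug and 4.87-fold without), IL6ST (3.70-fold and 4.21-fold), EPOR (2.31-fold and 2.92-fold), CSF2RB (2.80-fold and 2.10-fold) and OSMR (2.45-fold and 1.87-fold), each with a limma adjusted p of at most 0.001175. Within the same range over the 4 groups lay EPOR in UKE1 (6.42 with drug and 6.29 without), IL4R in untreated UKE1 (6.95) and OSMR in all 4 groups. IL4R there was above the 6.89 of the highest of those rows in untreated UKE1 cells. The part of these low levels in the folds was not tested. The smallest differences were those of IL2RG, at -0.06 with drug and 0.39 without, and IFNGR1, at -0.08 with drug and 0.24 without (log2). With drug neither was called (adjusted p = 0.351 and 0.374), and after quantile normalization these 2 differences were 0.10 and 0.08. Without untreated HEL replicate 3, the untreated difference of IFNGR1 was 0.16 and not called (adjusted p = 0.0865). The comparisons of lines and of drug share arrays, so a smaller difference with drug and a response that differs between lines are the same measurement.

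**Figure D3:**
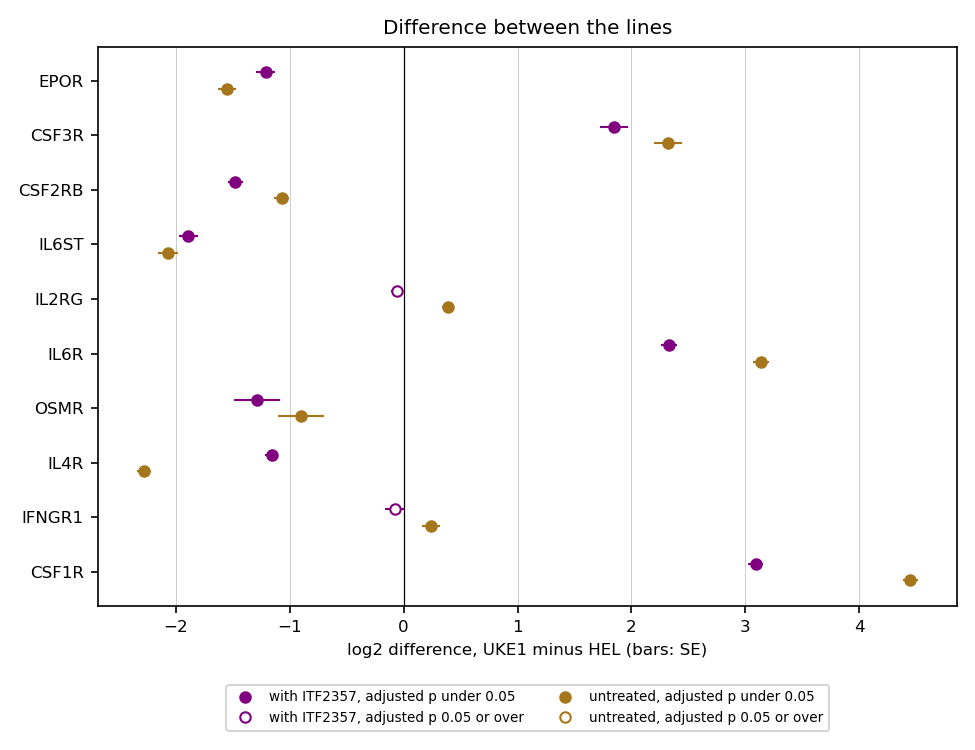
Log2 difference between the lines (UKE1 minus HEL, horizontal axis; bars, SE of the fit) of the 10 receptor genes with ITF2357 and untreated, with filled points where the adjusted p was under 0.05. CSF1R, IL6R and CSF3R lie to the right in both conditions, and EPOR, CSF2RB, IL6ST, OSMR and IL4R to the left.

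Ordered by group mean, CSF1R and IL6R ran from untreated UKE1 through treated UKE1 and untreated HEL to treated HEL, with only the step between the HEL groups not called (limma adjusted p = 0.401 and 0.715). CSF3R had the same order with the HEL groups exchanged, again with no call between them (adjusted p = 0.927). EPOR ran from untreated HEL through treated HEL and treated UKE1 to untreated UKE1, and only its middle step, between the lines, was called. CSF2RB and OSMR ran from treated HEL through untreated HEL and untreated UKE1 to treated UKE1. Their step between the lines was called, as was the last step of CSF2RB. For IL6ST and IL4R all 3 steps were called. IFNGR1 was highest in treated HEL and treated UKE1, which were not told apart (adjusted p = 0.374), then untreated UKE1 and untreated HEL. IL2RG was highest in untreated UKE1, and the steps among the other 3 groups were not called (adjusted p = 0.351 and 0.237).

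Partner chains and relatives of these receptors were read from a list of 30 other cytokine receptor genes, of which 28 were measured. In each line 7 rose, 3 fell and 18 were not called, so that 10 of 28 were called in each, near the shares over all genes of 44.3% in UKE1 and 42.4% in HEL. The median log2 change of the list was 0.07 in UKE1 and 0.03 in HEL, against 0.01 and -0.01 over all genes. IL10RB, a chain shared by receptors for IL-10 and interferon-lambda, rose by 0.70 in UKE1 and 0.64 in HEL, and IFNAR2, a chain of the interferon-alpha and -beta receptor, by 0.64 and 0.60 (limma adjusted p at most 2.565e-05). IL10RA, the IL-10 binding chain, rose in both lines, by 0.25 in UKE1 and 1.53 in HEL (adjusted p = 0.0164 and 5.13e-09), with a difference of -1.28 (adjusted p = 2.765e-06). Partners of IL6ST differed among themselves. IL27RA, its partner in the IL-27 receptor, fell by 1.33 in UKE1 and rose by 0.25 in HEL (adjusted p = 3.16e-08 and 0.0282), a difference of -1.58 (adjusted p = 1.23e-06). IL11RA, which binds IL-11, rose by 0.25 in UKE1 and changed by -0.17 in HEL (adjusted p = 0.0131 and 0.0895), with a difference of 0.41 (adjusted p = 0.0106). LIFR changed by 0.08 in UKE1 and -0.17 in HEL, and neither was called. Its group means of 3.21 to 3.38 were near the lowest rows of other tissues' genes. Of the partners of IL2RG, IL7R fell by 0.75 in UKE1 and changed by 0.00 in HEL (adjusted p = 6.095e-06 and 0.995), while IL9R changed by 0.05 in UKE1 and fell by 1.01 in HEL (adjusted p = 0.588 and 5.58e-08). IL2RA rose by 0.30 in UKE1 and changed by -0.05 in HEL (adjusted p = 0.015 and 0.687). Its treated and untreated UKE1 arrays overlapped, with means of 5.57 and 5.27 within the range of other tissues' genes. IL15RA changed by -0.07 in UKE1 and fell by 0.29 in HEL, and IL21R changed by 0.01 in UKE1 and fell by 0.21 in HEL. IL2RB was called in neither line.

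**Figure D4:**
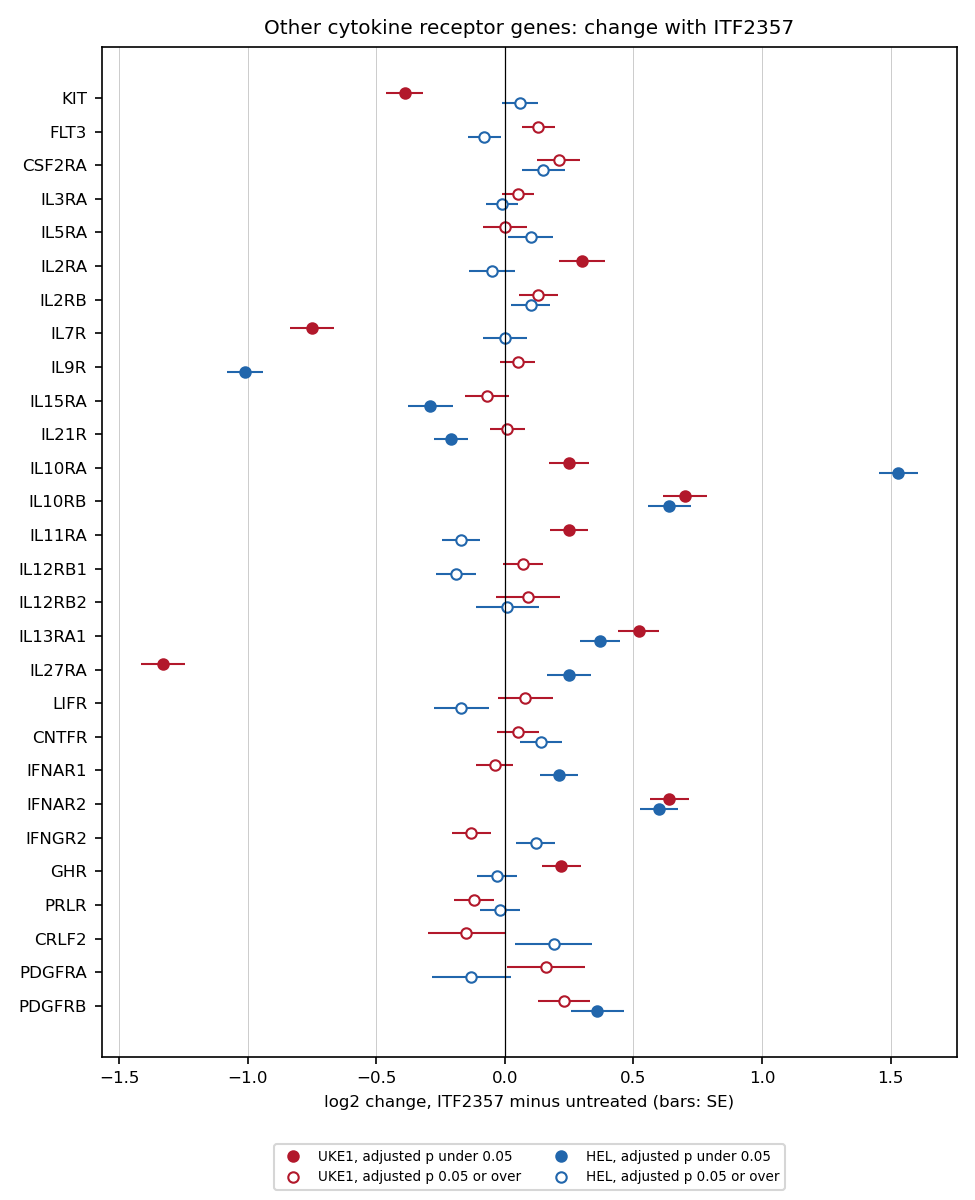
Log2 change with ITF2357 (treated minus untreated, horizontal axis; bars, SE of the fit) of the 28 other cytokine receptor genes in UKE1 and HEL, with filled points where the adjusted p was under 0.05. IL10RB, IFNAR2 and IL13RA1 lie to the right in both lines, IL27RA (-1.33) and IL7R (-0.75) to the left in UKE1, and IL9R (-1.01) to the left in HEL.

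Downstream of the receptors, 9 of 11 JAK and STAT genes were measured. In UKE1 3 rose and 5 fell, and in HEL 4 rose and 3 fell, against 44.3% and 42.4% of all genes called. JAK1, which serves IL6ST, IL4R and IFNGR1, rose by 0.66 in UKE1 and 0.30 in HEL, and JAK3, the partner of IL2RG, fell by 0.60 and 0.74. JAK2, which serves EPOR, CSF2RB and CSF3R, changed by -0.57 in UKE1 (limma adjusted p = 1.14e-05) and 0.10 in HEL (adjusted p = 0.263). STAT5A, which EPOR and CSF2RB activate, fell 1.85-fold in UKE1 and 2.02-fold in HEL, and STAT5B fell by 0.39 and 0.53. STAT4, a factor of IL-12 and interferon signals, rose 4.52-fold in UKE1 and 6.29-fold in HEL (adjusted p = 7.46e-09 and 2.24e-09), the largest change of the JAK and STAT genes. STAT3, which acts below IL6ST, rose by 0.64 in UKE1 and changed by 0.06 in HEL (adjusted p = 5.65e-07 and 0.441).

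Of 20 feedback and shedding genes 19 were measured. In UKE1 9 rose and 6 fell, and in HEL 11 rose and 4 fell, against 44.3% and 42.4% of all genes called. The ubiquitin ligase CBLB, which tags receptors for removal, rose by 0.79 in UKE1 and 0.84 in HEL, and its relative CBL, known to act on CSF1R, rose by 0.47 and 1.24. The phosphatase PTPN1 rose by 0.79 and 0.72, whereas PTPN2 fell by 0.50 and 0.86 and PTPN6, which damps signals of EPOR, fell by 0.48 and 0.45. Each of these 10 changes had a limma adjusted p of at most 0.000165. Other feedback genes differed between the lines. SOCS6 fell by 0.49 in UKE1 and rose by 0.21 in HEL (adjusted p = 8.04e-05 and 0.0332), with a difference of -0.70 (adjusted p = 0.000291). SOCS2, which STAT5 is known to induce, fell by 0.30 in UKE1 and rose by 0.38 in HEL, with a difference of -0.68 (adjusted p = 0.000128). PIAS3, an inhibitor of STAT3, changed by 0.03 in UKE1 and rose by 0.54 in HEL (adjusted p = 0.73 and 4.47e-06).

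A list of 12 factors known to act on receptor genes was measured in full. In UKE1 2 rose and 5 fell, and in HEL 2 rose and 6 fell, against 44.3% and 42.4% of all genes called. Beside SPI1 and GATA1, TAL1 fell by 1.28 in UKE1 and 1.12 in HEL and GFI1B by 0.58 and 0.42, while CEBPB, a factor of myeloid genes, rose by 0.78 and 0.47 and ETS1 by 1.83 and 0.99 (limma adjusted p at most 0.000391). SPI1 changed by -0.96 in UKE1 and -0.72 in HEL, and the difference of -0.25 was not called (adjusted p = 0.0808). Between the lines (UKE1 minus HEL), SPI1 differed by 0.16 with drug, which was not called (adjusted p = 0.0527), and by 0.40 untreated (adjusted p = 0.000112). GATA1 differed by -2.93 with drug and -2.81 untreated. Whether these factors bear on the receptor values was not tested.

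A list of 11 genes taken as targets of cytokine receptor signals was measured in full. In UKE1 6 rose and 4 fell, and in HEL 2 rose and 5 fell, against 44.3% and 42.4% of all genes called. The survival gene BCL2L1, a target of STAT5, fell by 0.93 in UKE1 and 0.80 in HEL. The kinases PIM1 and PIM2 rose in UKE1 (0.37 and 0.82) and fell in HEL (-0.79 and -0.59), with differences of 1.16 and 1.41 (limma adjusted p = 6.93e-07 and 1.90e-07), the same signs as IL4R. MYC fell by 0.22 in UKE1 and 0.79 in HEL, with a difference of 0.57 (adjusted p = 0.000222). BCL6, a repressor known to compete with STAT factors, rose by 0.85 in UKE1 and changed by -0.09 in HEL (adjusted p = 1.17e-06 and 0.407). Its means lay within the range of other tissues' genes in every group. MCL1, a survival gene, rose by 0.52 in UKE1 and 0.29 in HEL, and CCND3 fell by 0.44 and 0.70. CCND2, a cyclin of the G1 phase, fell by 0.83 in UKE1 and changed by 0.07 in HEL (adjusted p = 1.92e-07 and 0.453).

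For 9 receptor genes whose group means spanned over 1 on the log2 scale, the genes most like them were sought over the 12 arrays, by the root mean square (RMS) log2 difference after centring each gene on its mean. The nearest to EPOR were ST3GAL4 and TTN (RMS 0.080 and 0.094), to CSF2RB PAFAH1B2 and GATA2 (0.078 and 0.090), and to CSF1R PDE10A and TDRD9 (0.164 and 0.186). IL6R was nearest to SPOCK2 and PLXDC2 (0.111 and 0.127), CSF3R to GLB1L2 and OR3A2 (0.141 and 0.143), and IL6ST to SCAND3 and OAT (0.131 and 0.135). IFNGR1 was nearest to NIPAL3 and ZNF277 (0.104 and 0.106), IL4R to ABHD2 and KSR1 (0.112 and 0.156), and OSMR, which had the largest spread, to CFAP161 and MAPK6 (0.222 and 0.232). Pearson's r of these pairs was 0.933 to 0.998 over 12 arrays that share 4 groups, and it describes these arrays only.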

How the data were processed

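Expression was measured on 12 Affymetrix arrays, 3 in each of 4 groups taken from the sample descriptions. The authors deposited values made with Affymetrix Expression Console and RMA, per the submitters' processing notes; the sources used name no version and no genome build. The deposited values were read as log2 from their range (1.26 to 14.36, array medians 6.41 to 6.50). Of 33297 rows, 19460 had 1 gene symbol in GEO's platform annotation, 1754 several and 12083 none listed. The row with the highest mean was kept for the 769 genes with more than 1, which left 18417 genes. In limma 3.58.1 (R 4.3.3), lmFit and eBayes fitted a mean for each group to the 12 arrays together (8 residual degrees of freedom). Tests were two-sided, and p-values were adjusted over the 18417 genes by the Benjamini-Hochberg method. The fit was tested on simulated arrays with known changes. No depth applies to arrays, and their number limits the precision. Intervals are 95% intervals of the fit, not adjusted for the number of genes.

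The receptor genes and the other lists were chosen with earlier results of these data known. All 10 receptor genes are named; from each other list, up to 5 genes with the smallest adjusted p per line, besides partner chains of the 10 receptors. A gene named for one line has its value in the other given too. STAT6, SOCS2, EPO, CSF3 and CSF1 were named after their values were seen. Listed genes that no single-symbol row carried were not analysed here. Promoters are RefSeq's; that of CSF2RB was not used here. Alternatives tried were other scalings, a filter on low values, another variance moderation, other rows, fewer samples, the replicate block and leaving out each array.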

Additional observations from a re-analysis of the deposited data

Results flagged for a closer look

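The responses to ITF2357 of UKE1 and HEL differed by the test of the difference itself (limma, Benjamini-Hochberg adjustment over all genes) for 5 receptor genes. UKE1 minus HEL, the difference was -1.36 ± 0.0929 for CSF1R (SE, adjusted p = 4.78e-07), -0.82 ± 0.0976 for IL6R (adjusted p = 5.14e-05), -0.45 ± 0.0758 for IL2RG (adjusted p = 0.000716), -0.41 ± 0.0932 for CSF2RB (adjusted p = 0.00567) and 1.13 ± 0.0837 for IL4R (adjusted p = 9.35e-07). In HEL, CSF1R averaged 5.69 with drug and 5.76 without and IL6R 5.62 and 5.66, within the 3.32 to 7.30 of rows of other tissues' genes, and the part of these low levels in the difference was not tested. IL4R had all 3 treated arrays above the untreated ones in UKE1 and all 3 below them in HEL. Its mean of 6.95 in untreated UKE1 cells lay within that range too, though above the 6.89 of the highest such row in that group. The part of this level was not tested either. Groups of 3 arrays were not searched for single arrays that stand apart.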

How the results depend on the processing

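Over 8 settings other than leaving out an array, 366 of 385 values of a receptor gene in a comparison kept their sign and their side of the threshold, 17 were newly called and 2 changed sign. When 1 array was left out, 583 of 600 did, 12 were newly called, 1 call was lost and 4 changed sign. The signs that turned were of uncalled values. After quantile normalization the treated lines differed by 0.08 in IFNGR1 and 0.10 in IL2RG, and with 1 array left out the HEL response ran from -0.09 to 0.16 for CSF3R and from -0.08 to 0.002644 for IL6R. The count of receptor genes called in HEL was 3, and 5 after quantile normalization and 5 of 9 after the filter on low values, which added EPOR and IL2RG (42.4% of genes called in both the reported fit and the quantile one, 67.5% after the filter). It was 4 after median centring and 4 with an intensity trend and robust moderation, each adding IL2RG (41.9% and 43.6% of genes). The count for the difference of responses was 5, and 8 after the filter (41.0% of genes) and 8 with an intensity trend and robust moderation (26.8%). With 1 array left out these counts ran from 3 to 4 in HEL, 8 to 8 in UKE1, 5 to 7 for the difference, 9 to 10 between untreated lines and 8 to 8 between treated lines. Over all 33297 rows, 19147 were called between untreated and 19169 between treated lines, against 12471 and 12525 genes.

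The replicate numbers did not pair the arrays: deviations from group means correlated at -0.0877 to 0.0645 for the 6 same-numbered pairs within a line. With the replicate block, 7 receptor genes were called for the difference of responses, CSF3R (-0.48, adjusted p = 0.0412) and IFNGR1 (-0.32, adjusted p = 0.0462) being added, and no other receptor call changed. With 3 arrays a group and no detection flag, the precision for low, uneven rows such as OSMR is limited, and the filter on low values left OSMR out. The difference of responses has only the 4 groups together, so it has no value from fewer groups.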

Other observations

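The ligands of these receptors were mostly not called. Of 22 listed, 19 were measured; in UKE1 1 rose and 2 fell, and in HEL 1 rose and 5 fell, against 44.3% and 42.4% of all genes called. OSM, the ligand of OSMR, fell by 0.46 in UKE1 and 0.31 in HEL (limma adjusted p = 0.003515 and 0.0388). IL6 and LIF, ligands of receptors with IL6ST, changed by 0.03 and 0.10 in UKE1, where neither was called, and fell by 0.44 and 0.63 in HEL (adjusted p = 0.000842 and 0.00527). IL5, a ligand of a receptor with CSF2RB, changed by 0.00 in UKE1 and fell by 0.60 in HEL (adjusted p = 0.99 and 0.000965), and IL13 changed by -0.12 in UKE1 and fell by 0.33 in HEL (adjusted p = 0.357 and 0.0154). IL2 fell by 0.33 and FLT3LG rose by 0.26 in UKE1 (adjusted p = 0.0235 and 0.0252), and they changed by -0.09 and 0.03 in HEL, where neither was called. IL7, a ligand of IL7R and IL2RG, averaged 3.75 with drug and 3.78 without in UKE1, and 8.48 with drug and 8.21 without in HEL, where it rose by 0.28 (adjusted p = 0.0125). EPO, CSF3 and CSF1 were called in neither line. OSM, IL6, LIF and IL13 averaged within the range of other tissues' genes in all 4 groups, and the OSM arrays overlapped in HEL. IL2 averaged below that range, and IL5 averaged 3.02 in treated and 3.62 in untreated HEL cells. Whether these ligand RNAs were present was not determined.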
